A study of Mus musculus with 33 samples.

Results

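The genes described here encode the subunits of the 5 complexes of oxidative phosphorylation, the factors named with them, and cytochrome c, measured in mouse liver during fasting and refeeding with or without rapamycin. A probe set (the group of short probes that reads one transcript on the array) was a member when its single gene symbol began with Nduf, Sdh followed by a, b, c or d, Uqcr, Cox4 to Cox8 or Atp5, or was Cyc1 or Cycs. The rule used symbols and no measured value, and found 103 probe sets of 75 genes among the 10855 probe sets of 8252 genes that carry 1 symbol. Of these, 77 probe sets of 66 genes passed the detection filter (called present on at least 3 of the 33 arrays) and were tested among 6568 probe sets in all, and 52 of the 77 were called present on all 33 arrays. Complex I had 32 tested probe sets of 28 genes, complex II 6 of 6 genes, complex III 9 of 8 genes, cytochrome c 1, complex IV 12 of 10 genes and complex V 17 of 13 genes.

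Complex I (NADH dehydrogenase) and complex II (succinate dehydrogenase) pass electrons from NADH and succinate to ubiquinone, complex III passes them on to cytochrome c, and complex IV (cytochrome c oxidase) passes them to oxygen. Complexes I, III and IV pump protons across the inner mitochondrial membrane, and complex V (ATP synthase) uses the gradient to make ATP. In the fasted liver this chain reoxidises the cofactors that fatty acid oxidation reduces, and pays for glucose synthesis. A few subunits are encoded in mitochondrial DNA. All genes described here are nuclear.

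The study used livers of adult male mice on an Affymetrix mouse array, 33 arrays in 11 groups, and asked how refeeding after a fast and rapamycin, an inhibitor of the mTOR complex 1 kinase, change liver RNA. Uninjected mice were fasted for 24 h and killed (n = 5). In 8 groups (n = 3 each), mice were fasted for 22 h, injected with vehicle (0.9% NaCl with 2% ethanol) or with rapamycin at 10 mg/kg in it, and killed 2 h later without food (0 h) or after 3, 6 or 12 h of refeeding. Nonfasted mice were injected with vehicle or rapamycin and killed 24 h later (n = 2 each). All groups but the first were thus injected, the strain is not given in the sources used here, and no pooling of animals is stated. The arrays measure whole liver, so fewer cells of a type and less RNA per cell cannot be told apart.

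The values are intensities scaled by the authors, and an intensity of one probe set cannot be set against that of another. The arrays fell into 2 sets by how many of their values were 0 or negative, a share of 35.05% to 40.8% on 16 arrays and 24.2% to 28.2% on 17. Uninjected mice, vehicle mice at 0 and 6 h and nonfasted rapamycin mice lay in the first set. Rapamycin mice at 0 h, vehicle mice at 3 h, both groups at 12 h and nonfasted vehicle mice lay in the second, and rapamycin mice at 3 and 6 h in both. Comparisons across sets are therefore open to a shift between them, and for these the value from a fit with a term for array set is given where it ends a call. That term is estimated from the rapamycin groups at 3 and 6 h only, and takes the shift to be the same in all other groups. Whether it was the same was not tested. Of the liver cell markers, all 8 hepatocyte genes were detected, and 6 of the 8 fell and 1, transthyretin Ttr, rose at 12 h of refeeding against 0 h with either drug. Their median log2 change was -0.42 with vehicle and -0.62 with rapamycin. Over all probe sets, 9.3% and 10.4% were lower in these comparisons and the medians were 0.24 and 0.00. With array set as a term 2 of the 8 fell with vehicle. Summed intensities of other cell markers also moved between 0 and 12 h. Endothelial sums were 214 to 247 and 449 to 460 with vehicle, and 253 to 269 and 401 to 468 with rapamycin. Stellate cell and fibroblast sums were 1360 to 1533 and 980 to 1214, and 1453 to 1707 and 1095 to 1311. Lymphocyte sums, mostly of undetected probe sets, fell in both courses, and red blood cell sums with vehicle only. Kupffer cell sums overlapped. The part of these shifts in the results on those times was not tested.

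Taken over all 11 groups, 47 of the 77 member probe sets differed (limma F test, Benjamini-Hochberg adjusted p under 0.05), against 61.4% of all 6568 probe sets. The share of members thus lay near that of the array as a whole. By complex the count was 18 of 32 for complex I, 6 of 6 for complex II, 6 of 9 for complex III, 1 of 1 for cytochrome c, 7 of 12 for complex IV and 9 of 17 for complex V. The smallest adjusted p-values belonged to Sdhaf1 (8.89e-07), an assembly factor of complex II, and to Cox8c (9.59e-07), an isoform of a small complex IV subunit known from testis.

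The mean log2 level of the 52 members present on every array, centred on each probe set's own mean over the 33 arrays, was lowest in the uninjected fasted mice, at -0.26 ± 0.06 (SD, n = 5). It was 0.13 ± 0.22 in vehicle mice at 0 h, -0.04 ± 0.04 at 3 h, 0.07 ± 0.02 at 6 h and 0.15 ± 0.05 at 12 h (n = 3 each). With rapamycin it was -0.06 ± 0.19 at 0 h, 0.07 ± 0.13 at 3 h, 0.04 ± 0.04 at 6 h and 0.15 ± 0.08 at 12 h. The members were thus lower in every uninjected mouse (highest array -0.19) than in any injected mouse (lowest array -0.18), and the vehicle arrays at 0 h spanned those of the 3 h and 6 h groups, which did not overlap each other. The same mean over all 1955 probe sets present on every array was -0.09 in uninjected mice, -0.08 in vehicle mice at 0 h and 0.10 in vehicle mice at 12 h.

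**Figure D1:**
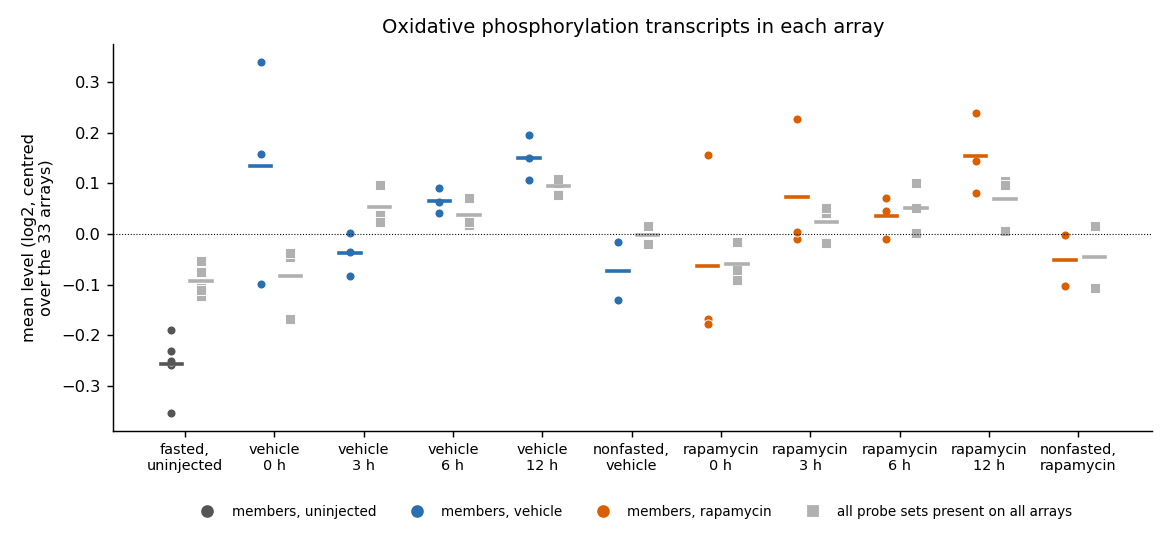
Mean centred log2 level per array in the 11 groups. Circles show the 52 member probe sets called present on all 33 arrays (grey, uninjected; blue, vehicle; orange, rapamycin), grey squares the 1955 probe sets called present on all 33 arrays, and bars the group means. The 5 uninjected arrays lie between -0.35 and -0.19, and the vehicle arrays at 0 h spread from -0.10 to 0.34.

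In the refeeding course with vehicle, 3 member probe sets were higher and 4 lower at 3 h than at 0 h, where 22.4% of all probe sets were called (19.9% higher, 2.54% lower). At 6 h 2 were higher and 8 lower, against 21.1% of all probe sets called (14.2% higher, 6.9% lower). At 12 h 10 were higher and 5 lower, against 35.3% (26% higher, 9.3% lower). The shares of members called (7, 10 and 15 of 77) were below those of the array as a whole, and the member medians were -0.09, -0.05 and 0.02 on the log2 scale, against 0.27, 0.02 and 0.24 for all probe sets. The 3 h and 12 h groups lie in the other array set than the 0 h group, so that set and time cannot be told apart from these vehicle arrays. The term for set takes its shift from the rapamycin arrays at 3 and 6 h. With that term no member was called at 3 h and 8 (1 higher, 7 lower) were called at 12 h. The split of the calls also turned with the scaling, with 3 higher and 32 lower at 3 h and 1 higher and 23 lower at 12 h when the arrays were scaled to 1 trimmed mean, and 2 higher and 6 lower at 3 h and 6 higher and 11 lower at 12 h after quantile normalization. Single arrays moved the earlier counts, to 25 at 3 h without the third vehicle array at 0 h, to 3 there without the second, and to 3 at 6 h without the second 6 h array. Within 1 array set, between 3 and 12 h with vehicle, 6 members were higher and 5 lower, against 11% of all probe sets called (5.8% higher, 5.16% lower), and 5 to 7 were called without any 1 of these arrays. Between 0 and 12 h with rapamycin, also within 1 set, 13 were higher and 3 lower, against 25% of all probe sets, 14.6% being higher and 10.4% lower. That count was 9 without the second array at 12 h and 10 without the second at 0 h.

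Nonfasted vehicle mice had 13 member probe sets lower and 0 higher than fasted vehicle mice at 0 h, where 29.2% of all probe sets were called, 19.1% higher and 10.1% lower. These groups lie in different array sets, and leaving out the second nonfasted vehicle array brought the count to 8, leaving out the third vehicle array at 0 h to 21. Markers of other cell types moved in the same comparison. Of 10 Kupffer cell and macrophage genes 7 were higher and 1 lower (2 and 1 with array set as a term), with a summed intensity of 1545 to 2095 in nonfasted and 1075 to 1168 in fasted vehicle mice. Of 4 endothelial genes 2 were higher and 0 lower, the lymphocyte marker Ms4a1 was lower by 1.61 on the log2 scale, and the pancreas marker Cela1 had means of 126.5 against 23.7. Of 8 hepatocyte genes 1 was higher and 1 lower. The part of these cells in the members' changes was not tested. Nonfasted rapamycin mice against uninjected fasted mice, a comparison within 1 set in which the groups differ in both feeding and drug, had 15 higher and 4 lower, against 23.8% of all probe sets (12.8% higher, 10.9% lower). That count was 3 without the second nonfasted rapamycin array and 10 without the first, and the split was 9 higher and 5 lower with the arrays scaled to 1 trimmed mean.

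**Figure D2:**
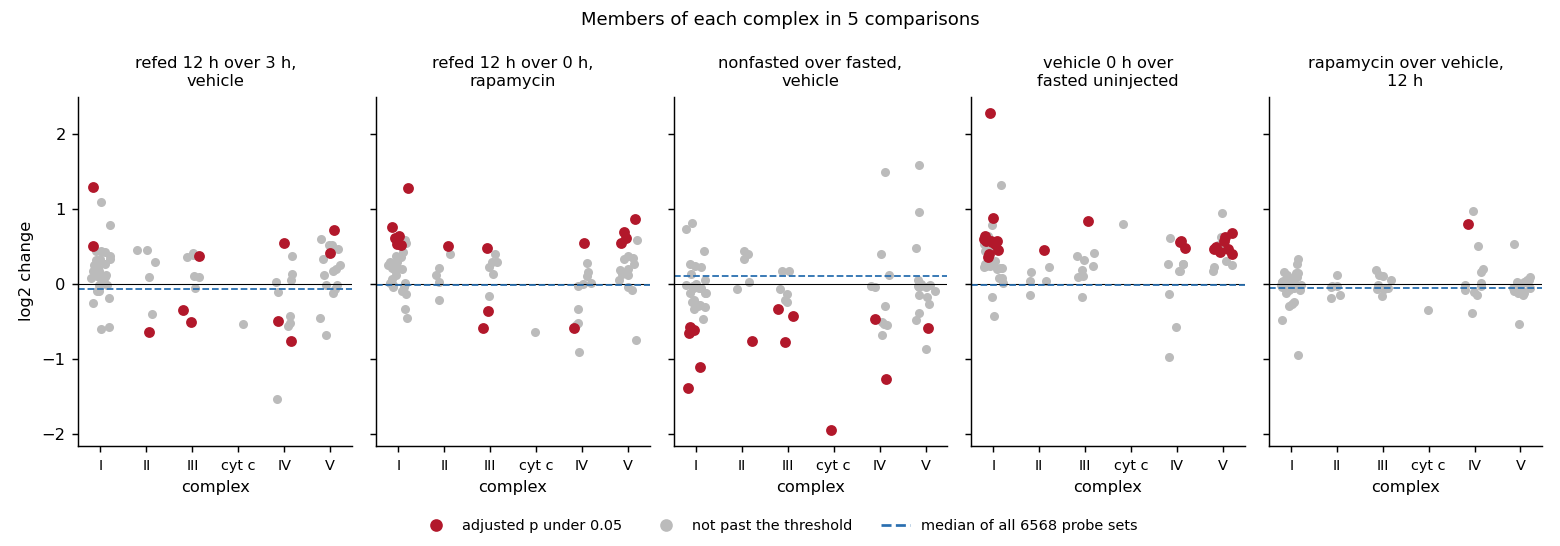
Log2 change of each tested member probe set by complex in 5 comparisons, 1 panel each. Points are probe sets, red where the adjusted p (limma) was under 0.05, and the dashed blue line is the median of all 6568 probe sets. Red points number 25 and all lie above 0 in the panel of vehicle mice at 0 h over uninjected mice, 13 and all below 0 in nonfasted over fasted vehicle mice, and 1 in rapamycin over vehicle at 12 h.

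Promoters are shown for 4 members on which the results below turn: Cox7a2l for its difference with rapamycin, Cycs for its low level in nonfasted mice, and Sdhaf1 and Uqcrc1 for a fall and a rise during refeeding. In RefSeq (GRCm38.p6) 61 of the 75 member genes have an entry, 250 bases before to 50 after the gene's start. Capitals mark matches to 5 motifs searched on both strands: GCGCATG (known for NRF-1), CCGGAAG (GABP), AAGATGG (YY1), TGACGTCA (CREB) and TCAAGGTCA (estrogen-related receptors). Overlapping matches were counted once per gene.
Cox7a2l, chr17:83514284-83514583, minus strand: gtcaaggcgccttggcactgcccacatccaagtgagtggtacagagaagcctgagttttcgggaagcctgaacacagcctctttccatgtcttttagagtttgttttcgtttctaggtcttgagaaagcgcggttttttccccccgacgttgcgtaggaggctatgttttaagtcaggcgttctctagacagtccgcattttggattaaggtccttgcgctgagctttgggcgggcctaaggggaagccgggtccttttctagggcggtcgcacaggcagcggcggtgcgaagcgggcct
Cycs, chr6:50566520-50566819, minus strand: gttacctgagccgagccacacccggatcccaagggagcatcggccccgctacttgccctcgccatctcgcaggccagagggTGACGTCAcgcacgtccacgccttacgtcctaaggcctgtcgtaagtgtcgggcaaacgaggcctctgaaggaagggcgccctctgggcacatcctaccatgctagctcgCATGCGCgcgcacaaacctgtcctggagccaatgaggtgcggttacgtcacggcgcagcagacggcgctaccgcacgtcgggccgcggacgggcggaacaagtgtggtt
Sdhaf1, chr7:30322326-30322625, minus strand: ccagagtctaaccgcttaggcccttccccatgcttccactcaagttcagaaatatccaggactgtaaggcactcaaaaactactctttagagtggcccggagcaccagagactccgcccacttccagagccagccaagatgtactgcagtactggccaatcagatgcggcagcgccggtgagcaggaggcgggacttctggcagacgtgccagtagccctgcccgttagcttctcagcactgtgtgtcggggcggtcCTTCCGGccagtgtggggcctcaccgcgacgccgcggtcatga
Uqcrc1, chr9:108936398-108936697, plus strand: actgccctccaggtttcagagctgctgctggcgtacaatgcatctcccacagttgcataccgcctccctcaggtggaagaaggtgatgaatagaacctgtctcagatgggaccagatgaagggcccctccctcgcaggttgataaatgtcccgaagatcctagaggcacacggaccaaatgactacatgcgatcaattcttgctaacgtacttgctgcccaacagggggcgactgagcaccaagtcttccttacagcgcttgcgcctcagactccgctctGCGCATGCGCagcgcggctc
The Cycs window holds TGACGTCA 169 bases before the start and CATGCGC 59 before it. The Sdhaf1 window holds CTTCCGG 8 bases after the start, the Uqcrc1 window GCGCATG overlapping its reverse form CATGCGC from 31 bases after it, and the Cox7a2l window none of these letters. Over the member genes with an entry, the NRF-1 motif was in 22.95% (14 of 61) against 4.41% of all 27025 genes, and the GABP motif in 29.5% (18) against 9.93%. The YY1 motif was in 13.1% (8) against 7.28%, the CREB motif in 4.92% (Cycs, Ndufa10 and Ndufb2) against 2.03%, and the estrogen-related receptor motif in 1.64% (Sdhd) against 0.466%. A match describes the letters of the window.

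Complex I had members that rose during refeeding and a few that were lower in fed mice. Ndufb10, an accessory subunit of the membrane arm (chr17:24722060-24724423), read 276.3, 218, 252, 246 and 269 in the uninjected mice. In vehicle mice it read 376, 439 and 294 at 0 h, 377, 348 and 347 at 3 h, 443, 445 and 420 at 6 h, and 515, 488 and 530 at 12 h. The 12 h arrays were above all earlier vehicle arrays, and all injected vehicle arrays of this course were above the uninjected ones. The change from 3 to 12 h was 0.52 ± 0.14 on the log2 scale (limma, SE), adjusted p = 0.0217, which rose to 0.0734 without the third vehicle array at 12 h and 0.077 after quantile normalization. With rapamycin Ndufb10 read 389, 269 and 259 at 0 h and 417, 506 and 491 at 12 h, without overlap, a log2 change of 0.64 ± 0.14 (limma adjusted p = 0.00201). Ndufs1, which carries iron-sulfur clusters, read 209, 261 and 242 at 0 h and 329, 357 and 344 at 12 h with rapamycin. Its groups did not overlap and its log2 change was 0.54 (limma adjusted p = 0.0194, and 0.0808 without the first 0 h array). Ndufaf1, an assembly factor of the complex, read 62, 39 and 36 at 0 h and 70, 69 and 66 at 12 h with rapamycin, a log2 change of 0.62 (limma adjusted p = 0.00476), with the first 0 h array close to the 12 h arrays. Against the uninjected mice (39.2, 37, 31, 40 and 34) it was also higher in nonfasted rapamycin mice, by 0.76 on the log2 scale (limma adjusted p = 0.00111). With these, the accessory subunits Ndufb6 (0.52), Ndufa8 (0.77) and Ndufa3 (1.29) made up the 6 of 32 complex I probe sets that rose by 12 h with rapamycin, and 0 fell. Of all probe sets 14.6% rose and 10.4% fell there. From 0 to 12 h with vehicle, across array sets, 3 of the 32 were higher and 0 lower, against 26% and 9.3% of all probe sets. With array set as a term these 3 calls were lost. Of the last 3 rises with rapamycin, Ndufb6 lost its call after quantile normalization (adjusted p = 0.0852). Ndufa8 lost it under 6 of the 7 alternatives, such as a floor of 30 (0.0506), and Ndufa3 (102097_f_at) with that floor. This last probe set was called present on 10 arrays only, and the floor sets the size of its change. The Ndufa3 probe set 96915_f_at, called present on all 33 arrays, was not among the rises. Its group means lay between 525.86 and 740, and it did not differ over the groups (F test adjusted p = 0.08).

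Nonfasted vehicle mice had 5 of 32 complex I probe sets below fasted vehicle mice and 0 above, a comparison across array sets. Of all probe sets 10.1% were lower and 19.1% higher there. Ndufaf4, an assembly factor, read 95, 67 and 52 in fasted vehicle mice at 0 h and 32 and 22 in nonfasted vehicle mice. The nonfasted arrays were both below all fasted ones, by 1.38 ± 0.28 on the log2 scale (limma adjusted p = 0.000645). The nonfasted rapamycin mice read 40 and 46 and the uninjected fasted mice 55.2, 43, 55, 48 and 55, so that these groups overlapped. The accessory subunits Ndufb9 and Ndufb3 fell by 0.61 and 0.57, with limma adjusted p = 0.0148 and 0.00722. Both calls were lost without the second nonfasted vehicle array, with adjusted p = 0.111 and 0.0612. Ndufa10 (log2 change -1.10) and Ndufa5 (-0.64) were called too, and lost the call without that array (0.339 and 0.301) and with array set as a term (0.127 and 0.164). Ndufv1, which binds NADH, differed little, with group means between 812.76 and 976 (F test adjusted p = 0.371), as did the membrane arm subunit Ndufb5, between 715.6 and 900 (0.595).

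Complex II is small, and its 6 measured genes all differed over the groups, in no common direction, where 61.4% of all probe sets differed. Of the 4 subunits, Sdhc, Sdhd and Sdha were called higher at 12 h than at 0 h with vehicle, and Sdhb was not. Sdhc, a membrane anchor (chr1:171129157-171150640), read 437.3, 485, 497, 446 and 483 in uninjected mice. With vehicle it read 512, 340 and 651 at 0 h, 535, 540 and 537 at 3 h, 665, 696 and 656 at 6 h and 755, 724 and 743 at 12 h. The 6 h and 12 h arrays were all above the 0 h and 3 h arrays, and the 0 h arrays were the most scattered. Its log2 change from 0 to 12 h was 0.61 ± 0.15 with vehicle (limma adjusted p = 0.00341, and 0.12 with the arrays scaled to 1 trimmed mean). With rapamycin it read 535, 570 and 441 at 0 h and 736, 754 and 696 at 12 h, again without overlap. That change was 0.51 (limma adjusted p = 0.018, and 0.0559 after quantile normalization, 0.0975 without the third 0 h array). The other anchor, Sdhd, read 892, 894 and 823 at 0 h and 1152, 1117 and 1100 at 12 h with vehicle. The catalytic flavoprotein Sdha read 110, 74 and 115 at 0 h and 150, 129 and 142 at 12 h. Both were thus higher at 12 h in every array. Their log2 changes were 0.37 ± 0.12 and 0.52 ± 0.17 (limma adjusted p = 0.0156 and 0.0214). Neither call held with array set as a term (adjusted p = 0.285 and 0.144) or with the arrays scaled to 1 trimmed mean (0.712 and 0.325). Sdhb, the iron-sulfur subunit, read 598, 686 and 513 at 0 h and 834, 679 and 681 at 12 h, with overlap, and was not called at 12 h.

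The complex II assembly factors went separate ways. Sdhaf1, which helps to insert iron-sulfur clusters into Sdhb (chr7:30321409-30322375), read 269, 257, 302, 275 and 279 in uninjected mice. With vehicle it read 278, 292 and 288 at 0 h, 299, 299 and 288 at 3 h, 218, 241 and 249 at 6 h and 178, 191 and 205 at 12 h. The arrays at 0 and 3 h lay together, those at 6 h below them, and those at 12 h below those at 6 h. Its log2 change from 3 to 12 h was -0.63 ± 0.09 (limma adjusted p = 0.000105), and from 0 to 12 h -0.58 ± 0.09 (2.82e-05). Both calls held under all 7 alternative settings and without any 1 array. With rapamycin Sdhaf1 read 259, 218 and 247 at 0 h, 318, 301 and 267 at 3 h, 220, 225 and 219 at 6 h and 225, 207 and 194 at 12 h. The arrays at 0 and 12 h overlapped and the log2 change of -0.21 did not pass (limma adjusted p = 0.0982). A test of whether the drug difference varied over 0, 3, 6 and 12 h did not pass either (limma interaction adjusted p = 0.381). The falls with vehicle and with rapamycin were thus not shown to differ. Nonfasted vehicle mice read 161 and 179, below every mouse killed fasted, with a log2 difference from fasted vehicle mice of -0.75 ± 0.10 (limma adjusted p = 7.57e-06). Nonfasted rapamycin mice read 223 and 227, above both nonfasted vehicle mice, by 0.41 ± 0.11 on the log2 scale. That difference did not pass (limma adjusted p = 0.0826), though it did with the arrays scaled to 1 trimmed mean (0.0105), with a floor of 30 (0.0244) and without the detection filter (0.025). Sdhaf2, which helps to attach the flavin to Sdha, went the other way at low intensity. It read 31, 33 and 28 at 0 h and 49, 45 and 51 at 6 h with vehicle, without overlap, a log2 change of 0.66 ± 0.18 (limma adjusted p = 0.00918), and was called present on 30 arrays.

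In complex III the core subunits moved apart. Uqcrc1 (chr9:108936648-108949641) read 404.9, 382, 495, 463 and 449 in uninjected mice. With vehicle it read 539, 517 and 500 at 0 h, 505, 556 and 466 at 3 h, 575, 532 and 589 at 6 h and 663, 679 and 639 at 12 h. With rapamycin it read 559, 413 and 442 at 0 h, 555, 492 and 570 at 3 h, 506, 613 and 558 at 6 h, and 593, 681 and 694 at 12 h. The 12 h arrays were above all arrays at 0 h and 3 h in both drug groups. The log2 change from 0 to 12 h with rapamycin was 0.49 ± 0.12 (limma adjusted p = 0.00349) and was called under every alternative. The change from 3 to 12 h with vehicle, 0.38 ± 0.12, passed (limma adjusted p = 0.0368) but not after quantile normalization (0.14), with the arrays scaled to 1 trimmed mean (0.0646) or without the third 3 h array (0.151).

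Uqcrc2, its partner in the core (chr7:120635189-120659523), read 262.8, 318, 325, 271 and 317 in uninjected mice. With vehicle it read 362, 334 and 322 at 0 h, 280, 325 and 282 at 3 h, 279, 277 and 273 at 6 h and 256, 211 and 231 at 12 h, and with rapamycin 343, 307 and 312 at 0 h and 272, 238 and 245 at 12 h. The 12 h arrays were below all arrays at 0 h in both courses, and the lowest of the vehicle course. Its log2 change from 0 to 12 h was -0.55 ± 0.10 with vehicle (limma adjusted p = 0.000256), called under all 7 alternatives and without any 1 array, and -0.35 ± 0.10 with rapamycin (0.0156, and 0.0723 without the second 12 h array). In nonfasted vehicle mice it read 215 and 184, below all fasted vehicle mice, by 0.77 ± 0.12 on the log2 scale (limma adjusted p = 2.78e-05). The probe set ends in _f_at, a class that may also read related sequences.

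Cyc1, the haem-bearing cytochrome c1 subunit (chr15:76343513-76346260), has a pair of probe sets. The 162469_r_at probe set read 779, 623 and 733 at 0 h, 804, 678 and 680 at 3 h, 635, 555 and 498 at 6 h and 469, 550 and 512 at 12 h with vehicle. With rapamycin it read 623, 832 and 787 at 0 h and 507, 461 and 518 at 12 h. All 12 h arrays were below all 0 h arrays in both courses. The log2 change from 0 to 12 h was -0.48 ± 0.12 with vehicle (limma adjusted p = 0.00389, and 0.0622 with array set as a term) and -0.58 ± 0.12 with rapamycin (0.00113, within 1 array set and called under every alternative). The 95072_at probe set had group means between 1569.5 and 1974 and was called only in nonfasted against fasted vehicle mice. It read 1545 and 1594 against 1974, 2071 and 1877 there, a log2 change of -0.33 ± 0.12 (limma adjusted p = 0.0453), which was lost with array set as a term (0.444) and without the first nonfasted array (0.198). Among the small subunits, Uqcr11 read 426, 595 and 233 in vehicle mice at 0 h and 190 to 238.7 in uninjected mice, and it was called in that comparison, by 0.85 on the log2 scale (limma adjusted p = 0.034). The call was lost in 8 of 15 alternatives and left-out arrays, with an adjusted p of up to 0.308 (without the second vehicle array), and with 0.0681 under the Actb term and 0.0547 without the detection filter.

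Cycs encodes somatic cytochrome c, the carrier between complexes III and IV (chr6:50562563-50566569). It read 114.4, 129, 219, 127 and 195 in uninjected mice. With vehicle it read 294, 281 and 228 at 0 h, 253, 277 and 240 at 3 h, 119, 133 and 225 at 6 h and 189, 200 and 150 at 12 h, and in nonfasted vehicle mice 75 and 64. With rapamycin it read 296, 211 and 168 at 0 h, 312, 267 and 143 at 3 h, 121, 112 and 211 at 6 h and 110, 146 and 176 at 12 h, and 76 and 96 in nonfasted mice. The 4 nonfasted arrays were the lowest of all 33, below every fasted or refed mouse, and the vehicle arrays at 0 and 3 h lay just above those at 6 and 12 h, with no change that passed. Nonfasted against fasted vehicle mice gave a mean of 69.5 (n = 2) against 268 (n = 3), a log2 change of -1.94 ± 0.34 (limma adjusted p = 0.000157), called under all 7 alternatives and without any 1 array. Nonfasted rapamycin mice against uninjected mice gave -0.83 and did not pass (limma adjusted p = 0.0572).

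**Figure D3:**
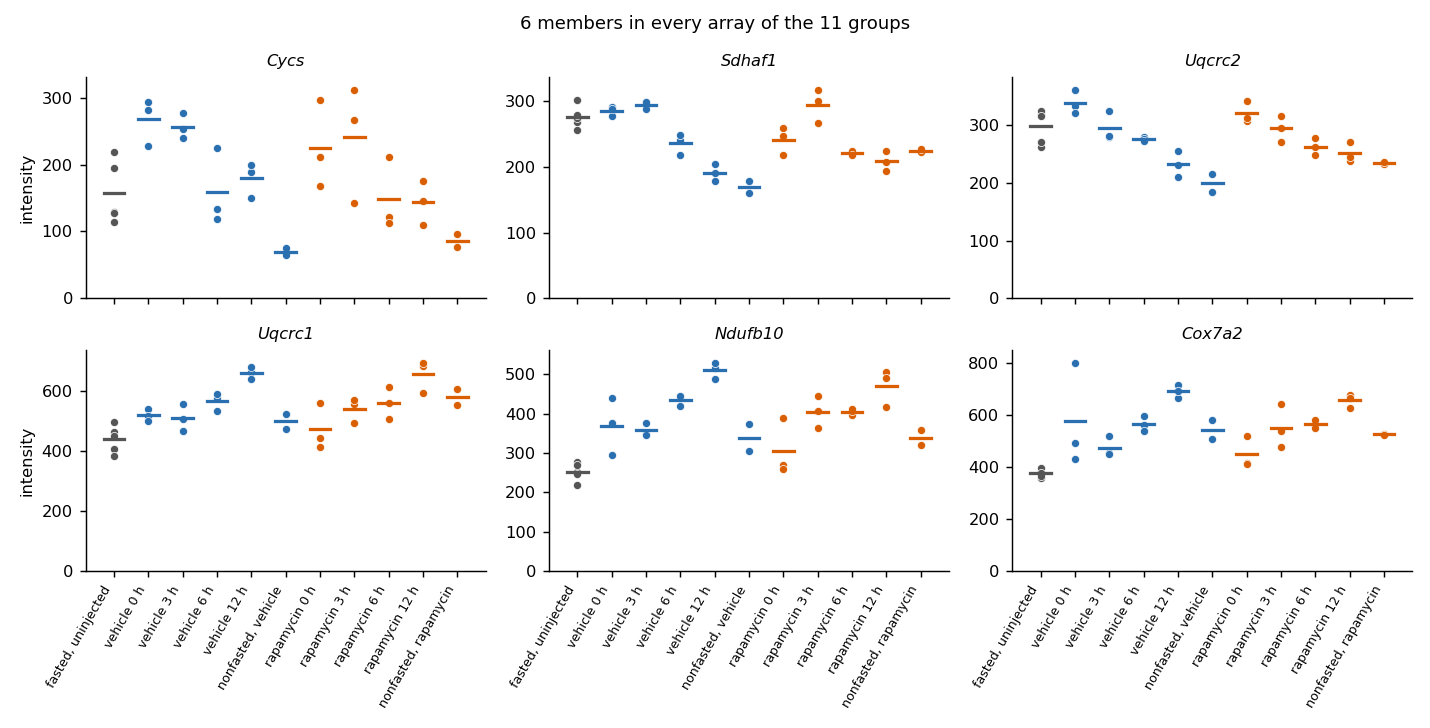
Intensity of Cycs, Sdhaf1, Uqcrc2, Uqcrc1, Ndufb10 and Cox7a2 on each of the 33 arrays, by group. Points are arrays and bars group means. The 4 nonfasted arrays are the lowest for Cycs, at 64 to 96, and the 12 h arrays are above the 0 h arrays for Uqcrc1 and below them for Uqcrc2.

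Complex IV gave the 1 member called between rapamycin and vehicle at 12 h. Cox7a2l (chr17:83501917-83514333), related to the small subunit 7a and known as a factor that joins complexes III and IV into a supercomplex, read 185.5, 165, 191, 215 and 206 in uninjected mice. With vehicle it read 252, 238 and 209 at 0 h, 215, 214 and 187 at 3 h, 183, 151 and 174 at 6 h and 159, 132 and 148 at 12 h. With rapamycin it read 250, 214 and 221 at 0 h, 213, 263 and 297 at 3 h, 229, 235 and 246 at 6 h and 243, 276 and 250 at 12 h. At 0 h the drug groups overlapped, at 3 h they shared part of their range, and at 6 and 12 h every rapamycin array was above every vehicle array. The mean at 12 h was 256 ± 17.4 with rapamycin and 146 ± 13.6 with vehicle (SD, n = 3 each), a 1.75-fold difference (log2 0.81 ± 0.13, limma adjusted p = 0.00673). At this time 0.32% of all 6568 probe sets were called (0.122% higher, 0.198% lower). Both groups lie in the same array set, and the call held under all 7 alternatives and without any 1 array, with a highest adjusted p of 0.0398 without the second vehicle array. At 6 h the log2 difference was 0.49 ± 0.13 (limma adjusted p = 0.324), at 3 h 0.32 (adjusted p = 0.575) and at 0 h -0.03 (adjusted p = 0.961). Nonfasted mice read 185 and 197 with vehicle and 197 and 261 with rapamycin, overlapping, with a log2 difference of 0.25 (limma adjusted p = 0.58).

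**Figure D4:**
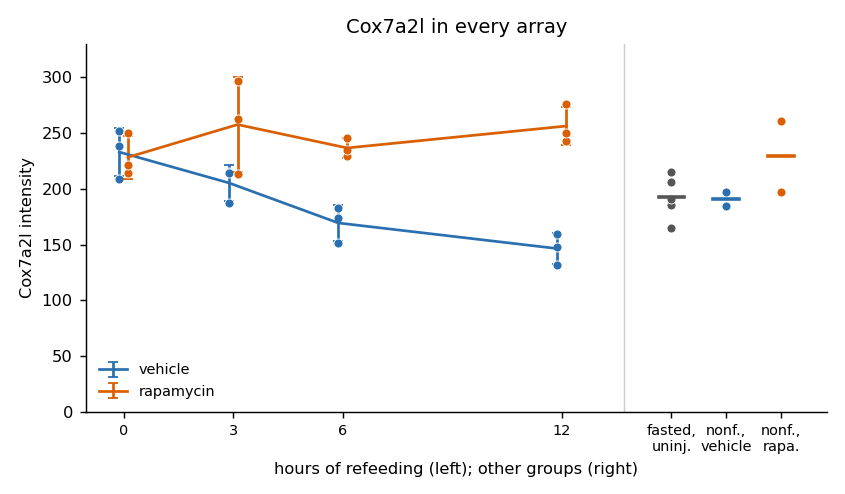
Intensity of Cox7a2l on each array against hours of refeeding, with the uninjected and nonfasted groups at the right. Points are arrays, and lines and bars give the mean ± SD of vehicle (blue) and rapamycin (orange) mice. At 12 h the rapamycin arrays lie between 243 and 276 and the vehicle arrays between 132 and 159.

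The difference at 12 h went with a fall in the vehicle course. Cox7a2l fell by 0.67 ± 0.13 on the log2 scale from 0 to 12 h with vehicle (limma adjusted p = 0.000318, and 0.0523 with array set as a term). It fell by 0.46 from 0 to 6 h, within 1 array set (0.013), a call lost without the first 0 h array (0.0629) or the second 6 h array (0.0762). It fell by 0.49 from 3 to 12 h, also within 1 set (0.0163), a call lost without the first or second 3 h array (0.0604 and 0.0649) or the second 12 h array (0.0848). With rapamycin the change from 0 to 12 h was 0.17 (limma adjusted p = 0.374). In the test of whether the drug difference varied over 0, 3, 6 and 12 h, Cox7a2l had an adjusted p of 0.0697 and did not pass. Its drug difference was 0.35, 0.52 and 0.84 larger at 3, 6 and 12 h than at 0 h on the log2 scale.

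Cox7a2, the form of subunit 7a found in liver (chr9:79755241-79771422), did not share this pattern. It read 380.9, 359, 395, 376 and 366 in uninjected mice, 518, 452 and 450 at 3 h and 714, 666 and 690 at 12 h with vehicle, and 520, 417 and 410 at 0 h and 625, 678 and 664 at 12 h with rapamycin. Arrays at 12 h were above the earlier ones in both pairs. Its log2 change from 3 to 12 h with vehicle was 0.55 ± 0.15 (limma adjusted p = 0.0204, and 0.0761 without the third 3 h array), and from 0 to 12 h with rapamycin 0.55 ± 0.15 (0.00881, called under every alternative). Cox8c was called present on 8 arrays only. It read 218, 173 and 208 at 0 h and 95, 90 and 94 at 12 h with vehicle, and 74 and 93 in nonfasted vehicle mice. Its log2 change was -1.10 ± 0.16 from 0 to 12 h (limma adjusted p = 1.36e-05) and -0.75 ± 0.16 from 3 to 12 h (0.00405), and both held under every alternative. With rapamycin it read 160, 155 and 153 at 0 h and 116, 96 and 103 at 12 h, a log2 change of -0.58 (limma adjusted p = 0.011, and 0.0566 without the second 12 h array). Cox5b, a subunit of the matrix side, read 953, 1205 and 812 in fasted vehicle mice at 0 h and 713 and 707 in nonfasted vehicle mice, a log2 change of -0.46 ± 0.12 (limma adjusted p = 0.00572) that held under every alternative. Cox6a1, the liver form of subunit 6a, had group means between 1269.67 and 1478 and did not differ over the groups (F test adjusted p = 0.565).

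Among isoforms known from other tissues, Cox6a2 and Cox7a1, the heart and muscle forms, did not pass the detection filter, nor did Cox6b2, known from testis. Cox8b, also a heart and muscle form, had group means between 25 and 52.5 and was called present on 6 arrays. The skeletal and heart muscle markers were called present on no array. Cox5a, Cox8a, Atp5g1, Ndufa1, Ndufa12 and Ndufa13, which are common subunits, also did not pass the filter. Ndufa13 was called present on no array although its group means lay between 168 and 299. Of Cox4i1, the common form of subunit 4, the 102124_f_at probe set had group means between 124.5 and 210.7 (F test adjusted p = 0.513). The dim 93788_at, called present on 6 arrays, had means between -3.8 and 37.3. It passed the F test (adjusted p = 0.000382), but not with array set as a term (0.151).

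In complex V, 9 of the 17 probe sets (52.9%) differed over the groups, below the 61.4% of all 6568 probe sets. Atp5e, a small subunit of the central stalk (chr2:174461075-174464101), read 191.9, 160, 152, 192 and 183 in uninjected mice, 237, 373 and 202 in vehicle mice at 0 h and 358 and 372 in nonfasted vehicle mice. It read 230, 162 and 171 at 0 h and 291, 307 and 306 at 12 h with rapamycin, and 348 and 329 in nonfasted rapamycin mice. The nonfasted arrays were all above the uninjected ones, and the 12 h rapamycin arrays above the 0 h ones. The log2 change was 0.70 ± 0.17 from 0 to 12 h with rapamycin (limma adjusted p = 0.00443), and 0.95 ± 0.18 between nonfasted rapamycin and uninjected mice (0.000343). Both comparisons lie within 1 array set and both calls held under every alternative and without any 1 array. Its probe set ends in _i_at and may also read related sequences. Atp5o, which links the stator to the catalytic head, read 485, 483 and 481 at 12 h with rapamycin and rose by 0.61 on the log2 scale from 0 h (limma adjusted p = 0.0103, and 0.087 without the second 0 h array). Atp5mpl, a small proteolipid of the complex, read 425, 420 and 476 at 3 h and 766, 743 and 671 at 12 h with vehicle. The groups did not overlap, and the log2 change was 0.72 ± 0.19 (limma adjusted p = 0.0179, and 0.0639 without the second 3 h array). Atp5g2, an isoform of the ring subunit c, read 116, 122 and 113 at 3 h and 171, 143 and 157 at 12 h with vehicle. Its log2 change of 0.42 passed narrowly (limma adjusted p = 0.0449), and not without the first 12 h array (0.135). Atp5a1, the alpha subunit of the catalytic head, had group means between 1218.5 and 1527.33 and did not differ over the groups (F test adjusted p = 0.277).

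Atp5c1, the gamma subunit that turns within the head, has a pair of probe sets that differed in part. The 92798_at probe set read 464.3, 513, 584, 575 and 564 in uninjected mice, 812, 724 and 659 in vehicle mice at 0 h, 531, 529 and 548 at 6 h, and 507 and 472 in nonfasted vehicle mice. The 0 h arrays stood above all of these. The log2 change was -0.44 ± 0.11 from 0 to 6 h (limma adjusted p = 0.00374) and -0.58 ± 0.12 in nonfasted against fasted vehicle mice (0.000829), and both held under every alternative and without any 1 array. The 92799_g_at probe set read 829, 841 and 666 at 0 h and 701, 681 and 731 at 6 h, with overlap, and was not called there (log2 change -0.14, limma adjusted p = 0.367). In nonfasted vehicle mice it read 649 and 643, below the 0 h arrays, and did not pass either (-0.26, 0.0753). Its group means were lowest in uninjected mice (585.8) and highest in vehicle mice at 12 h (790.7), and vehicle mice at 0 h were above uninjected mice by 0.41 (0.0116), as they were on the other probe set by 0.44 (0.013).

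Fasted vehicle mice at 0 h differed from uninjected fasted mice in more members than any other comparison gave, with the fast of equal length and the arrays of 1 set. In all, 25 of the 77 probe sets were higher and 0 lower, while 5.88% of all probe sets were called, 2.94% higher and 2.94% lower. Members above 0 numbered 70 of 77, against 2755 of all 6568, and the medians were 0.41 and -0.01 on the log2 scale. The calls came from complex I (12), complex V (8), complex IV (3), complex II (1) and complex III (1), and the complex medians were 0.44, 0.50, 0.27, 0.11 and 0.25. None of the 8 hepatocyte genes was called, and the macrophage marker Csf1r and the pancreas marker Cela1 were lower, by 1.48 and 1.46 on the log2 scale. Endothelial marker sums were 302 to 343 in uninjected and 214 to 247 in vehicle mice, and Kupffer cell and macrophage sums 1169 to 2371 and 1075 to 1168. Stellate cell and lymphocyte sums were also lower without overlap, and hepatocyte and red blood cell sums overlapped. The part of these cells in the members' differences was not tested. Atp5o read 479, 527 and 313 at 0 h against 294.2, 219, 258, 303 and 272, Cox5b 953, 1205 and 812 against 734.2, 643, 734, 692 and 683, and Ndufa8 171, 300 and 107 against 88 to 103.4. The groups did not overlap for these members, and the third vehicle array was close to the uninjected ones in each. The log2 changes were 0.68 ± 0.15, 0.49 ± 0.10 and 0.89 ± 0.25 (limma adjusted p = 0.0149, 0.00769 and 0.0389).

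This count rested on single arrays. It was 2 without the second vehicle array, 5 without the first, 40 (39 higher, 1 lower) without the third and 13 without the second uninjected array. The second vehicle array was the highest of its 3 in 36 of the 52 members present on every array and the third the lowest in 41, where all 1955 such probe sets had 25.6% and 31.3%. A like order appeared elsewhere, with the first array highest in 42 of 52 members in rapamycin mice at 0 h, in 40 at 3 h, and in 43 in nonfasted vehicle mice (43%, 38% and 59.4% of all 1955). The ratio of the 3' to the 5' control probe sets of Actb, which rises as RNA is degraded, was 1.35, 1.65 and 1.27 in vehicle mice at 0 h and 1.20 to 1.40 in uninjected mice, within 1.15 to 1.65 over all arrays. In rapamycin mice it was 1.44, 1.15 and 1.18 at 0 h and 1.51, 1.26 and 1.26 at 3 h. The same ratio of Gapdh was 0.98, 0.99 and 1.01 in vehicle mice at 0 h and 0.91 to 1.07 in uninjected mice. With rapamycin the Gapdh ratio was 1.01, 0.94 and 0.96 at 0 h and 0.88, 0.92 and 1.02 at 3 h. It was thus not highest in the second vehicle array at 0 h or in the first rapamycin array at 3 h. The array with the highest Actb ratio was that with the highest member level in 8 of the 11 groups, and in 4 of 11 for the 1955 probe sets. With the Actb ratio as a term, added after seeing the data, 7 members were called between vehicle mice at 0 h and uninjected mice. Atp5c1 (92798_at), Cox5b and Atp5o were the members called there under all 7 alternatives, with adjusted p = 0.0798, 0.0792 and 0.137 without 1 vehicle array. The 12 h comparisons moved the other way with that term, from 11 to 18 members between 3 and 12 h and from 15 to 23 between 0 and 12 h with vehicle. The part of RNA quality in these results was not tested beyond this.

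**Figure D5:**
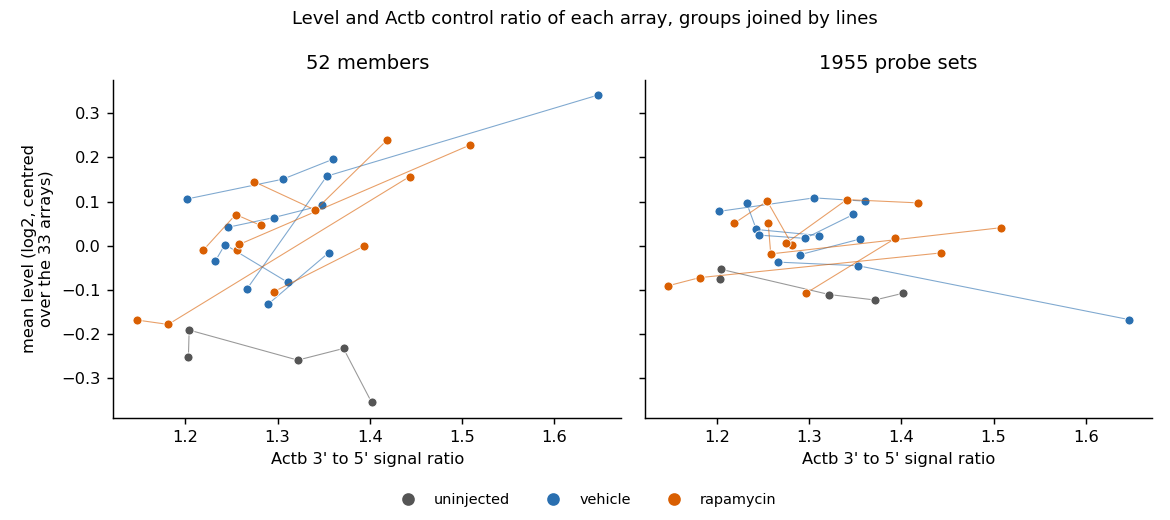
Mean centred log2 level per array against the Actb 3' to 5' ratio of that array, for the 52 member probe sets (left) and for 1955 probe sets present on all arrays (right). Points are arrays coloured by drug and lines join the arrays of a group. The vehicle array at 0 h with a ratio of 1.65 has the highest member level, 0.34, and a level of -0.17 over the 1955 probe sets.

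Apart from Cox7a2l, rapamycin against vehicle gave few member calls. At 0 h, 1 member was higher and 2 lower, where 5.36% of all probe sets were called (4.78% higher, 0.579% lower) and the groups lie in different array sets. These were Atp5d (94279_at) and, lower, Ndufa3 (102097_f_at) and Cox7b (log2 change -0.65). None of the 3 was called with array set as a term or with a floor of 30, and the first and second were dim, with group means of Atp5d from -11.1 to 55.3, so that the floor sets the size of their differences. With the arrays scaled to 1 trimmed mean 14 members were called at 0 h (1 higher, 13 lower), and 18 without the third vehicle array or 7 without the first rapamycin array. At 3 h and at 6 h limma called 0 members, where 0.305% (0.0152% higher, 0.289% lower) and 0.0152% of all probe sets were called and 6 and 4 members had an unadjusted p under 0.05. In nonfasted mice it called 0 as well, against 1% of all probe sets (0.0761% higher, 0.929% lower), with 8 members under 0.05 unadjusted. At these times the closest members were Cox7a2l at 6 h, and Sdhaf1 and Cox8c in nonfasted mice, where Cox8c read 74 and 93 with vehicle and 146 and 126 with rapamycin. Its log2 difference was 0.71 ± 0.20 (limma adjusted p = 0.0924, and 0.0493 with the Actb term). Over the 4 times, the drug difference varied for 1 member, the dim Atp5d (94279_at), against 1.31% of all probe sets. Its limma adjusted p was 0.038, and it was not called with array set as a term. Its drug difference at 3, 6 and 12 h less that at 0 h was -3.41, -1.28 and -2.69 on the log2 scale. The Atp5d probe sets 161145_f_at (0.59, 0.54 and 0.43) and 161494_f_at (0.66, 0.89 and 0.63) went the other way. Each was called present on 26 arrays, and neither passed (limma interaction adjusted p = 0.705 and 0.762). Without the third vehicle array at 0 h, 4 members were called.

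Other mitochondrial genes were counted by gene. Of the mitochondrial ribosome, 24 of 60 measured genes were higher and 0 lower at 12 h than at 0 h with vehicle, where 26% of all probe sets were higher. With array set as a term 6 of 60 were higher and 0 lower, against 9.62% and 5.95% of all probe sets, so that the share of higher genes lay near that of the array. Between 3 and 12 h with vehicle, within 1 array set, 7 of 60 were higher and 1 lower. Of all probe sets 5.8% were higher and 5.16% lower there, and the median log2 change was 0.17 against -0.07 for all probe sets. Between 0 and 12 h with rapamycin, within 1 array set, 16 were higher and 2 lower, where 14.6% of all probe sets were higher and 10.4% lower, and the median log2 change was 0.33 against 0.00 for all probe sets.

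Of 14 genes of the citric acid cycle and pyruvate dehydrogenase, 2 were higher and 6 lower in nonfasted than in fasted vehicle mice, where 19.1% of all probe sets were higher and 10.1% lower. With array set as a term 0 were higher and 3 lower, against 8.16% and 7.58% of all probe sets. Fumarase Fh1 fell by 1.02 on the log2 scale (limma adjusted p = 0.0014, and 0.0201 with array set as a term). Suclg1, a subunit of succinyl-CoA ligase, fell by 0.57 (0.0079, and 0.18 with that term). The pyruvate dehydrogenase subunit Dlat counts in both directions, since its dim probe sets were called opposite ways. Of 15 mitochondrial import genes, 1 was higher and 5 lower in the same comparison, and 0 and 3 with array set as a term. The translocase subunit Timm23 was lower by 0.63 (limma adjusted p = 0.000827, and 0.00964 with the term). In vehicle mice at 0 h against uninjected mice 4 of the 15 were higher and 1 lower, where 2.94% of all probe sets were called each way, and Timm23 was higher by 0.39 (0.0318).

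Of 10 regulators of mitochondrial biogenesis, 1 rose and 3 fell from 0 to 12 h with vehicle, where 26% and 9.3% of all probe sets did, and 0 and 2 with array set as a term. The coactivator Ppargc1a had means of 26.7 at 0 h and 3.3 at 12 h. It was called present on 16 arrays, and the 12 h mean lies below the floor of 6.31, so that no fold is given. Its call at 12 h was lost with array set as a term (limma adjusted p = 0.0651), and between 0 and 12 h with rapamycin, within 1 array set, it was called too (0.00244), with means of 21 and -3.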

How the data were processed

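RNA of 33 mouse livers was measured on Affymetrix arrays of 12488 probe sets. The deposited values are intensities, each array but the first multiplied by the authors by a scale factor, per the file headers; values below 0 were kept, and the software version is not given in the sources used here. Detection calls (2989 to 5714 present per array) are not assigned to samples and were only counted, and 66 per-array columns were not used. Trimmed means of the arrays, with 2% left off each side, lay between 53.2 and 69.9, and arrays of 1 group correlated at 0.915 to 0.975.

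Intensities below 6.31, which is 0.1 of the arrays' average trimmed mean, were set to that value before log2 was taken. The 6568 probe sets called present on at least 3 arrays were tested with limma 3.58.1 in R 4.3.3, with 11 group means in 1 fit (22 residual degrees of freedom), moderated tests, and Benjamini-Hochberg adjustment over all of them at a threshold of 0.05; the tests were tried on simulated data. Tables and figures used pandas 2.3.3, numpy 2.4.6 and matplotlib 3.10.9. Samples were grouped by the labels, and p-values measure the spread between these samples, as far as the labels show 1 mouse each. The number of arrays limits the precision. Probe sets of several genes (396, of which 10 name a gene of this pathway) or none (1237) were not named. A probe set ending in _f_at, _r_at, _i_at, _s_at or _g_at may read related sequences.

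Members picked for naming were the 4 largest rises and falls called per comparison, and the 12 smallest F and 6 smallest interaction p-values. Also named were a list of core subunits and tissue isoforms, and some others called, chosen after their values were seen. Not all picked results are described above. Cox6b1, Atp5j and Atp5l between 0 and 3 h with vehicle are among those left out, as is Atp5d (161145_f_at) between 0 and 12 h with rapamycin. The members and lists were chosen with earlier results of these data known. Of the markers of unlike cell types, 0 of 13 muscle and 0 of 4 bile duct probe sets were present on any array, against 1 of 8 for lymphocytes (Ms4a1, on 26 arrays), 1 of 2 for fat cells (Adipoq, on 9) and 1 of 1 for exocrine pancreas (Cela1, on 6). Alternatives were quantile normalization, scaling to 1 trimmed mean, a floor of 30, no detection filter, array set, replicate number as a block, the Actb ratio as a term (added after seeing the data), and leaving out each array.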

Additional observations from a re-analysis of the deposited data

Results flagged for a closer look

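In the 5 uninjected fasted mice, 7 of 46 named probe sets had 1 array far from the others, with a gap to the nearest array of over the limit for 5 samples as a share of the range; chance flags about 1 group in 20. Cox7b was low in replicate 5 (440, next 567, a gap of 0.773 of the range), Cox4i1 (102124_f_at) low in replicate 3 (73, next 137, gap 0.711) and Ndufv3 high in replicate 1 (113.3, next 86, gap 0.822). Cox6a1 was high in replicate 1 (1356.2, next 1268, gap 0.858). In 3 dim probe sets all arrays but 1 lay at or below the floor, so that the gap was 1.0. These were Ndufa3 (102097_f_at) in replicate 1 (11.2, next 6), Ndufc2 in replicate 3 (12, next 2) and Atp5d (94279_at) in replicate 4 (15, next -4.3).

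The rapamycin difference of the same dim Atp5d probe set varied between refeeding times (limma interaction test, adjusted p = 0.038). It was not called with array set as a term or with quantile normalization. The Atp5d probe sets 161145_f_at and 161494_f_at did not pass that test (limma interaction adjusted p = 0.705 and 0.762).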

How the results depend on the processing

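Of the 63 results picked per comparison, not all described above, 30 kept their direction and their side of the threshold under all 7 alternatives. Of these, 17 also held without any 1 array, among them the higher Cox7a2l with rapamycin at 12 h. Among the 63, 1 turned: Atp5d (94279_at) between 0 and 12 h with vehicle became -0.16 with array set as a term. Members called at 3 h against 0 h with vehicle numbered 35 with 1 trimmed mean and 0 with array set. Those at 6 h were 4 with the replicate block. Those at 12 h against 0 h were 24 with 1 trimmed mean, 8 with array set and 23 with the Actb ratio, and those at 12 h against 3 h were 20 with a floor of 30 and 18 with the Actb ratio. Nonfasted against fasted vehicle mice gave 25 with 1 trimmed mean. Nonfasted rapamycin against uninjected mice gave 9 with the replicate block. Vehicle mice at 0 h against uninjected mice gave 16 without the filter, 6 with the replicate block and 7 with the Actb ratio. Rapamycin against vehicle at 0 h gave 1 with quantile normalization, 14 with 1 trimmed mean, 1 with a floor of 30, 5 without the filter and 0 with array set. At 3 h it gave 1 with a floor of 30, at 12 h 2 with that floor, and in nonfasted mice 1 with 1 trimmed mean, 2 with a floor of 30, 1 without the filter and 1 with the Actb ratio. The interaction test gave 2 with 1 trimmed mean and 0 with quantile normalization, without the filter, with array set, with the replicate block and with the Actb ratio. The cause of these shifts was not tested. Replicate numbers were not found to pair the samples, since arrays of 1 number deviated from their group means with correlations of -0.43 to 0.21, and the block left 35 of 47 members in the F test over the groups.

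Leaving out 1 array gave 40 to 57 members in the F test and 0 to 4 in the interaction test. Refeeding counts with vehicle ranged from 3 to 25 at 3 h, 3 to 11 at 6 h, 12 to 19 at 12 h against 0 h and 5 to 7 at 12 h against 3 h, and with rapamycin from 9 to 22. Nonfasted against fasted vehicle mice ranged from 8 to 21, nonfasted rapamycin against uninjected mice from 3 to 21 and vehicle mice at 0 h against uninjected mice from 2 to 40. Rapamycin against vehicle ranged from 1 to 18 at 0 h, 1 to 1 at 12 h and 0 to 0 at 3 h, at 6 h and in nonfasted mice.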
